A study of Mus musculus with 8 samples.

Results

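Expression of 7 genes of phosphatidylcholine and phosphatidylethanolamine synthesis was followed in mouse regulatory T (Treg) cells that lacked Relb, Nfkb2 or both, the subunits of the alternative NF-κB pathway. They are Pcyt1a, Pcyt2, Chka, Chkb, Chpt1, Cept1 and Etnk1, and their rows were taken by gene symbol, 7 of 22432 in the deposited table. Pcyt1a was chosen because its level stood out in cells lacking Nfkb2, so its difference in those cells is described here without a test. The other 6 genes are enzymes of the same route.

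Phosphatidylcholine is the main phospholipid of most animal cell membranes, and proliferating lymphocytes make it in large amounts. In the CDP-choline route a kinase phosphorylates choline, a cytidylyl transferase turns phosphocholine into CDP-choline, and a phosphotransferase joins the choline group to diacylglycerol. Pcyt1a encodes the main cytidylyl transferase, which is regarded as the rate-limiting step and is active when bound to membranes. Chka and Chkb encode the choline kinases, Chpt1 a cholinephosphotransferase, and Cept1 a phosphotransferase that accepts both the choline and the ethanolamine group. Etnk1 (ethanolamine kinase) and Pcyt2 (the ethanolamine cytidylyl transferase) carry out the corresponding steps of the parallel CDP-ethanolamine route.

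RNA was sequenced from 8 samples, 2 libraries for each of 4 genotypes on the C57Bl/6 strain. All groups carried the Foxp3-CRE-YFP allele, which expresses Cre recombinase and a yellow fluorescent reporter in Foxp3-expressing cells, and the YFP-positive cells of spleen and lymph nodes, pooled, were sorted. WT cells had no floxed gene, RelB-KO cells came from RelB F/F animals, Nfkb2-KO cells from nfkb2 F/F animals and DKO cells from animals with both floxed genes, so that deletion takes place only once Foxp3-Cre has been expressed. All cells were cultured for 16 h in wells coated with antibody to CD3 (5 µg/ml) with soluble antibody to CD28 (1 µg/ml), an agonist antibody to OX40 (2 µg/ml) and IL-2 (10 ng/ml). Ages were not given, and the labels do not say whether replicates 1 and 2 came from separate animals. The p-values therefore reflect the spread between libraries, which may be technical except in WT, whose 2 libraries differed in transcripts of the sex chromosomes.

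The values are deposited log2 expression levels, here called log2 levels. Sequencing was planned at 30 M reads for each sample, the depth of single libraries is unknown, and the sum of un-logged values ran from 18.2 to 19.7 M. Transcripts of the deleted genes were low in the groups that the labels name as lacking them. Relb lay at 6.35 and 6.52 in RelB-KO and 6.74 and 7.08 in DKO against 10.49 to 10.84 in the intact groups, and Nfkb2 lay at 8.75 and 8.79 in Nfkb2-KO and 9.29 and 9.85 in DKO against 12.31 to 12.80. WT replicate 1 stood apart in transcripts of the sex chromosomes, Xist being at 8.17 against 14.6 to 15.1 in the other 7 libraries and Ddx3y at 11.60 against 4.25 to 4.35. The 2 WT libraries thus did not come from the same animal. In differences from WT within replicate 1, genotype and this sex pattern cannot be told apart. Within WT the pattern goes with replicate number, also in the fit with replicate number as a block. The part of sex in the results was not tested. Foxp3 and the other 6 Treg and CD4 T cell markers were measured in every library, and their summed level ranged from 17.3 to 17.6 on the log2 scale. The summed levels of markers of other cells ran from 7.37 to 7.89 for 7 B cell genes (Pax5 was listed at 0), from 6.55 to 7.21 for 8 myeloid genes and from 8.03 to 8.29 for 6 CD8 T and NK genes.

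The Pcyt1a row itself departed from the rest of the table. This bears on every comparison of Pcyt1a with WT and, through the shared spread, on the standard error of all its comparisons. The table gives 12.1507 for Pcyt1a in both WT libraries, and among 16184 complete rows that were not 0 throughout, this was the only one with equal WT values. It was also the only one of these rows in which the z-scores deposited beside the log2 levels did not match them within 1e-05, with a difference of 0.163 z units against at most 7.55e-07 elsewhere. In the other 7 libraries the Pcyt1a z-scores and log2 levels fell on one line, and on that line the z-score of WT replicate 2 corresponded to a log2 level of 12.30, which is 0.15 above the deposited one. The same calculation returned the deposited WT replicate 2 level in 13796 other rows with an error of at most 1.53e-08. Values for Pcyt1a are as deposited unless stated otherwise, and its differences from WT and the interaction are also given with 12.30 in WT replicate 2, an alternative added after the data were seen. Which of the values was measured was not tested.

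**Figure D1:**
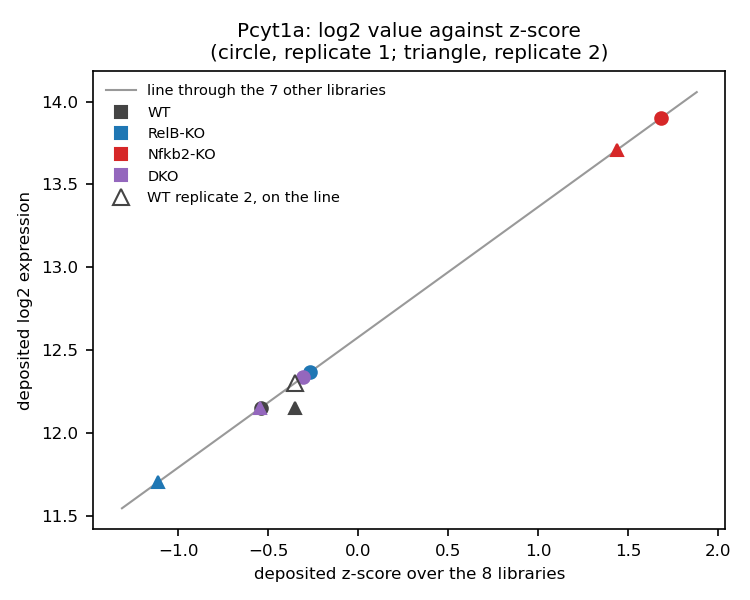
Deposited log2 level of Pcyt1a (vertical axis) against its deposited z-score over the 8 libraries (horizontal axis), with one point per library, colour for genotype and shape for replicate. The line runs through 7 libraries, and WT replicate 2 lies below it at 12.15, whereas its z-score corresponds to 12.30 on the line (open triangle).

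Pcyt1a (chromosome 16, 32430921 to 32475070, plus strand, GRCm38/mm10, GENCODE M21) has 8 annotated transcripts, 4 of them protein-coding. Its 3′ end shares 567 bases with Slc51a on the opposite strand, and it overlaps the antisense gene 2210020O09Rik. Neither gene was analysed here, and whether counting used strand is not given in the sources used here, so reads of these genes may be included. The 250 bases before its start are shown because Pcyt1a has the largest difference of the 7 genes and NF-κB dimers bind short GGG and CC half-sites. Those of Tctex1d2, the next gene before it on the same strand, are shown because its level is compared with that of Pcyt1a further on. RefSeq sequences (GRCm38.p6, plus strand, 5′ to 3′) are given, with every match to GGGNNNNNCC or GGGNNNNCC on either strand in capitals.

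Pcyt1a, chr16:32430671-32430920: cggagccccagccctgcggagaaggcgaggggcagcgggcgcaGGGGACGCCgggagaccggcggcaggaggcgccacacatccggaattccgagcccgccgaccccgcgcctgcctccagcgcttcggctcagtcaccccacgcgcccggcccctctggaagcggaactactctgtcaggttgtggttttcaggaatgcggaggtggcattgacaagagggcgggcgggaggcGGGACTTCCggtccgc
Tctex1d2, chr16:32419452-32419701: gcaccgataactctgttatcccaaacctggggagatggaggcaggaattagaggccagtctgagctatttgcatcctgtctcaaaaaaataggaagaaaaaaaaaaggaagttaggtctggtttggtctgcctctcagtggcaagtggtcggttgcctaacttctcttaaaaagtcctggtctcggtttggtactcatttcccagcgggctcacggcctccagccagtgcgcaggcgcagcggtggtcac

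The Pcyt1a window held 2 matches to GGGNNNNCC, GGGGACGCC and GGGACTTCC, the second beginning at position -16 from the annotated start, and 0 to GGGNNNNNCC. The Tctex1d2 window held neither. Such matches are common: 38.2% of 27018 RefSeq promoter windows of 250 bases held GGGNNNNCC and 45.4% held GGGNNNNNCC. Promoters of 6 of the 7 genes were matched, all but Pcyt2. Chka, Chkb, Chpt1, Cept1 and Etnk1 each held at least 1 match to GGGNNNNNCC, with 8 in Chpt1, so matching letters lie before each of the 6 genes.

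Pcyt1a was higher in both Nfkb2-KO libraries than in any other library, and in cells lacking both Relb and Nfkb2 it lay near the WT level. Its log2 level was 12.15 in both WT libraries (12.30 in replicate 2 from the z-scores), 12.37 and 11.70 in RelB-KO replicates 1 and 2, 13.90 and 13.71 in Nfkb2-KO, and 12.34 and 12.15 in DKO. The 2 Nfkb2-KO libraries lay well clear of the next highest library, and the other 6 overlapped one another across genotypes. Group means were 12.15 for WT as deposited, 12.03 ± 0.47 (SD, n = 2) for RelB-KO, 13.80 ± 0.14 for Nfkb2-KO and 12.24 ± 0.13 for DKO. The zero spread of the WT group comes from the repeated value, and with 12.30 the WT mean was 12.23 ± 0.11.

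The difference between Nfkb2-KO and WT was 1.65 ± 0.21 (standard error of the limma model), or 3.14-fold, and 1.75 and 1.56 within replicates 1 and 2. Since the deposited WT values are equal, it was also 1.65 without WT replicate 1. With 12.30 in WT replicate 2 it was 1.58 ± 0.21, or 2.98-fold, and 1.40 within replicate 2. Among 13797 genes tested, whose un-logged values averaged at least 1, it ranked 14 among the higher differences (15 with 12.30). Of the 552 genes whose mean level on the deposited scale, which has no length term, was at or above that of Pcyt1a, one had a larger difference in this direction, Xist at 3.33, which WT replicate 1 sets apart, and the next after Pcyt1a was Odc1, the first enzyme of polyamine synthesis, at 0.99. In the authors' deposited table the Pcyt1a log2 fold change of Nfkb2-KO against WT is 1.46. In this comparison 0.341% of genes were called at an adjusted p under 0.05 (47 genes, limma with Benjamini-Hochberg adjustment), 2.91% with replicate number as a block and 6.22% of 11880 genes by the authors' adjusted p. Because Pcyt1a was chosen on this contrast, nothing is read from its place among them.

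Between Nfkb2-KO and DKO the Pcyt1a difference was -1.56 ± 0.21, and it was -1.56 in each replicate. This comparison involves no WT library, so the repeated value does not touch the difference itself. Through the shared spread it does touch the standard error, which with the replicate block was 0.14 as deposited and 0.15 with 12.30. The comparison also shares the Nfkb2-KO libraries on which Pcyt1a was chosen. Added deletion of Relb thus went with a difference of -1.56 in cells lacking Nfkb2 and of -0.12 in cells that had it. The difference between these values was -1.44 ± 0.30, or -1.37 ± 0.30 with 12.30 in WT replicate 2. As deposited, it was -1.11 without RelB-KO replicate 1 and -1.78 without RelB-KO replicate 2, the library with the lowest Pcyt1a level.

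The comparisons whose differences use no Nfkb2-KO library were tested, and Pcyt1a was not called in any of them. RelB-KO minus WT was -0.12 ± 0.21 (limma adjusted p = 0.9999), but it was 0.22 in replicate 1 and -0.45 in replicate 2, so its sign rests on RelB-KO replicate 2. With 12.30 in WT replicate 2 it was -0.19 ± 0.21, and -0.60 within replicate 2. DKO minus WT was 0.09 ± 0.21 (limma adjusted p = 0.986), or 0.02 ± 0.21 with 12.30, with a 95% interval from -0.41 to 0.60 as deposited. Within replicates it was 0.19 and -0.00 as deposited, and -0.15 within replicate 2 with 12.30. DKO minus RelB-KO, which uses neither WT nor Nfkb2-KO libraries, was 0.21 ± 0.21, with a 95% interval from -0.29 to 0.71 (limma adjusted p = 0.9996) and from -0.10 to 0.52 with the replicate block. Across all genes 0.00725% were called in RelB-KO minus WT (1 gene), 0.0145% in DKO minus WT (2 genes) and 0.00725% in DKO minus RelB-KO (1 gene).

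**Figure D2:**
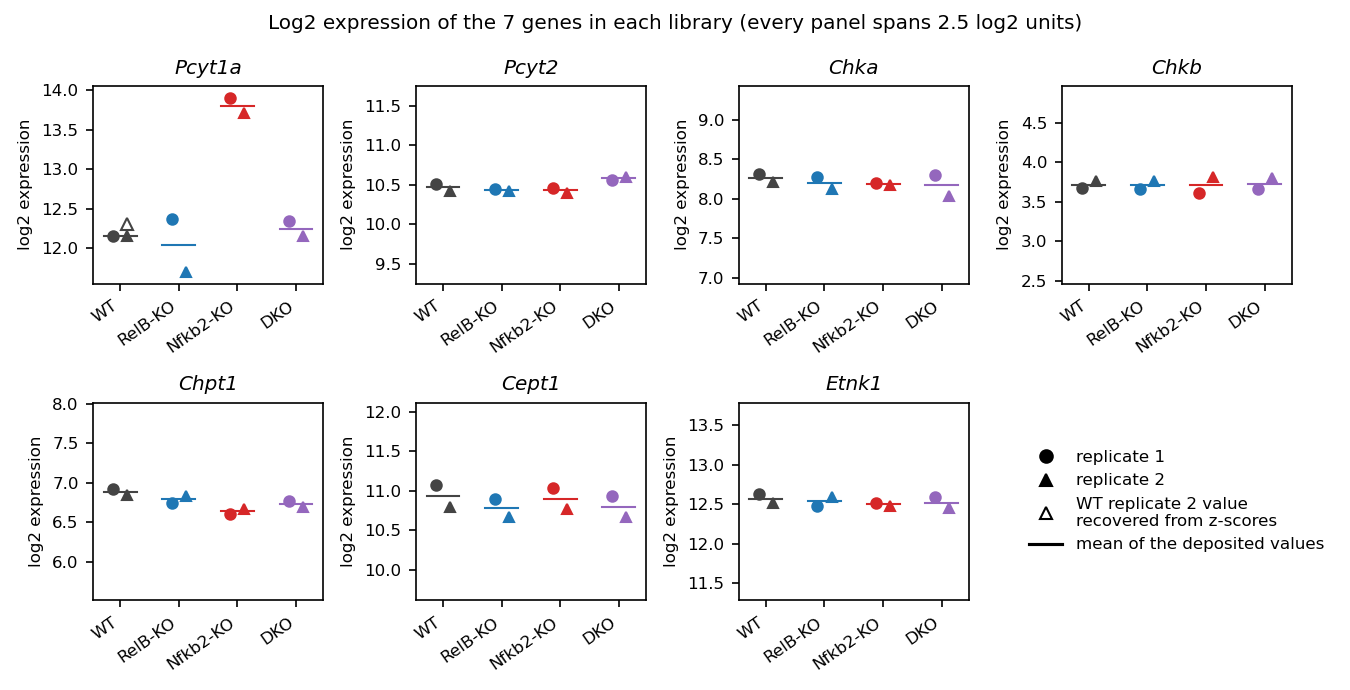
Deposited log2 level of each of the 7 genes (vertical axes, each spanning 2.5 log2 units) in the 8 libraries by genotype, with circles for replicate 1, triangles for replicate 2 and lines for group means; the open triangle is the WT replicate 2 level of Pcyt1a from the z-scores. Pcyt1a lies at 13.90 and 13.71 in Nfkb2-KO and between 11.70 and 12.37 elsewhere, while each of the other 6 genes stays within 0.40 over all libraries.

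The 7 genes differed widely in level. After subtraction of log2 exonic length in kilobases, which puts genes on a per-length log2 scale, the mean over 8 libraries was highest for Pcyt1a (9.67), followed by Cept1 (9.22), Etnk1 (8.71) and Pcyt2 (8.36), and then by Chka (4.62), Chpt1 (3.70) and Chkb (2.11). Ranges over the 8 libraries were 2.20 for Pcyt1a and 0.18 to 0.40 for the others, and on this scale the libraries of neighbouring genes in the order overlapped for Pcyt1a and Cept1 but not for the pairs after them. The lengths count the exons of every annotated transcript, and which transcripts these cells use was not examined. Close places in the order may therefore depend on the lengths used, which the spread between libraries does not show. The place of Pcyt1a in this order rests on the Nfkb2-KO libraries on which it was chosen: on the per-length scale its mean and that of Cept1 were 10.91 and 9.26 in Nfkb2-KO, but 9.26 as deposited (9.34 with 12.30) and 9.29 in WT, 9.14 and 9.14 in RelB-KO, and 9.35 and 9.16 in DKO.

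None of the other 6 genes followed Pcyt1a. In each of the 6 contrasts fitted, 0 of them were called, without or with the replicate block. With the block the share of all genes called was 2.91% in Nfkb2-KO minus WT, 0.0145% in RelB-KO minus WT, 0.0652% in DKO minus WT, 5.02% in DKO minus Nfkb2-KO, 0.0145% in DKO minus RelB-KO and 0.471% in the interaction. Without it the shares were 0.341%, 0.00725%, 0.0145%, 0.768%, 0.00725% and 0.00725% in the same order. Nfkb2-KO minus WT ranged from -0.25 to -0.00 with a median of -0.06 (median of all tested genes 0.00). The 95% intervals of the 6 genes in that comparison reached from -0.45 to 0.35, and from -0.45 to 0.12 with the block, so a difference of the size seen for Pcyt1a lies outside the interval of each of them. For Chkb, at a mean log2 level of 3.72, the interval says little, because fold changes of weakly expressed genes may be too small in these values. The smallest adjusted p for any of the 6 genes over all contrasts was 0.376 (limma), and 0.183 with the block.

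Among the kinases, Chka was at log2 levels of 8.32 and 8.22 in WT, 8.28 and 8.12 in RelB-KO, 8.20 and 8.18 in Nfkb2-KO and 8.31 and 8.04 in DKO. Its Nfkb2-KO libraries lay just below both WT libraries, by 0.12 and 0.04 within replicates, and all other groups overlapped. Libraries of Nfkb2-KO and WT did not overlap for 42.5% of all tested genes. Chkb, the second choline kinase, was the lowest of the 7 genes, at 3.68 and 3.76 in WT, 3.67 and 3.77 in RelB-KO, 3.62 and 3.82 in Nfkb2-KO and 3.67 and 3.80 in DKO. Replicate 2 was higher in every genotype and no groups separated, so the spread between replicates was larger than any difference between genotypes. Its locus (chromosome 15, 89426360 to 89429908, minus strand) is overlapped by Gm44502 and C730034F03Rik. Etnk1, the ethanolamine kinase, was at 12.62 and 12.51 in WT, 12.47 and 12.60 in RelB-KO, 12.51 and 12.48 in Nfkb2-KO and 12.59 and 12.45 in DKO, with a range of 0.18 over all libraries, the smallest of the 7 genes. Its Nfkb2-KO libraries also lay just below both WT libraries, by 0.11 and 0.03 within replicates, a non-overlap shared by the 42.5% of genes given above.

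Pcyt2, which does for phosphoethanolamine what Pcyt1a does for phosphocholine, had its highest levels in DKO. It was at 10.52 and 10.42 in WT, 10.44 and 10.43 in RelB-KO, 10.46 and 10.40 in Nfkb2-KO and 10.56 and 10.60 in DKO, so both DKO libraries were above the other 6. The differences of DKO were 0.11 ± 0.07 from WT (limma adjusted p = 0.861), 0.15 ± 0.07 from Nfkb2-KO (0.581) and 0.15 ± 0.07 from RelB-KO (0.9996), none of which was called. Non-overlap with DKO was seen in 34.1% of tested genes for WT, 35.1% for Nfkb2-KO and 27.5% for RelB-KO. The 2 cytidylyl transferases thus had different profiles, with Pcyt1a highest in Nfkb2-KO and Pcyt2 between 10.40 and 10.46 there.

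Of the last-step enzymes, Chpt1 was highest in WT. It was at 6.92 and 6.85 in WT, 6.74 and 6.83 in RelB-KO, 6.61 and 6.67 in Nfkb2-KO and 6.77 and 6.69 in DKO. Both Nfkb2-KO libraries were the lowest of the 8, and both WT libraries were the highest. Non-overlap with WT was seen in 42.5% of all tested genes for Nfkb2-KO, 34.1% for DKO and 20.6% for RelB-KO. Nfkb2-KO minus WT was -0.25 ± 0.08 (unadjusted p = 0.0225, limma adjusted p = 0.376, and 0.183 with the block), and 1472 genes had an unadjusted p under 0.05 in this comparison. The log2 fold change in the authors' deposited table is -0.37, with an adjusted p of 0.279. Chpt1 shares part of its locus (chromosome 10, 88452745 to 88504073, minus strand) with Sycp3 on the other strand.

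Cept1 was at 11.07 and 10.79 in WT, 10.90 and 10.67 in RelB-KO, 11.04 and 10.77 in Nfkb2-KO and 10.94 and 10.67 in DKO. Replicate 2 was lower than replicate 1 in all 4 genotypes, by between 0.23 and 0.28, which is more than any difference between genotypes. With the replicate block the standard error of its differences fell from 0.16 to 0.07, and no difference was called: RelB-KO minus WT was -0.15 and DKO minus WT was -0.13, with limma adjusted p values of 0.9999 and 0.439. Cept1 (chromosome 3, 106502260 to 106547802, minus strand) overlaps Dennd2d and Dram2 on the other strand.

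**Figure D3:**
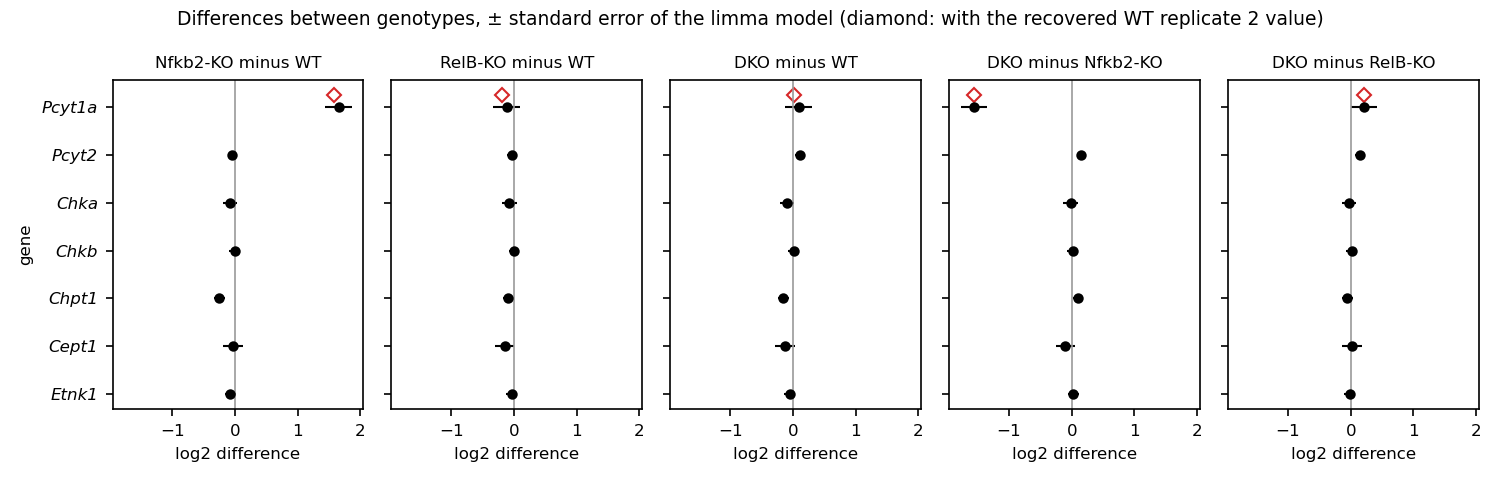
Differences between genotypes for the 7 genes (horizontal axes, log2 units; rows, genes) in 5 comparisons, with points for the limma estimate and bars for ± 1 standard error; diamonds use 12.30 for Pcyt1a in WT replicate 2. Pcyt1a lies at 1.65 in Nfkb2-KO minus WT and at -1.56 in DKO minus Nfkb2-KO, and the other genes lie between -0.25 and 0.15 in every panel.

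The wider pathway was described with 6 lists of 65 genes, of which 57 were tested. In Nfkb2-KO minus WT 32 of these were positive and 25 negative, with a median of 0.02 against 0.00 for all tested genes, and 0 were called (background 0.341%). With the replicate block 1 was called higher, Slc44a1, and 1 lower, Pcyt1b (background 1.91% higher and 1.00% lower). In DKO minus Nfkb2-KO 1 of 57 was called lower, again Slc44a1 (background 0.645% lower), and with the block Slc44a1 was lower and Chdh higher (2.96% lower and 2.07% higher). These comparisons share the Nfkb2-KO libraries. In RelB-KO minus WT, DKO minus WT and DKO minus RelB-KO 0 of 57 were called, with or without the block.

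Slc44a1, a plasma membrane choline transporter that supplies the first step of the route, was the one gene of these lists called in both comparisons when the block was used. Its log2 level was 8.53 and 8.50 in WT, 8.44 and 8.35 in RelB-KO, 9.43 and 9.17 in Nfkb2-KO and 8.44 and 8.10 in DKO, so both Nfkb2-KO libraries lay above the other 6. Nfkb2-KO minus WT was 0.79 ± 0.14 (limma adjusted p = 0.115, and 0.00499 with the replicate block). DKO minus Nfkb2-KO was -1.03 ± 0.14 (limma adjusted p = 0.0352, and 0.000876 with the block). The latter call was lost when any of the 8 libraries was left out, with adjusted p from 0.0741 to 0.202, and at 0.0606 without the variance trend. Slc44a2, a related choline transporter, had a negative difference between Nfkb2-KO and WT, -0.38 ± 0.12 (adjusted p = 0.331, and 0.102 with the block).

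Pcyt1b, the second gene for the choline cytidylyl transferase, was lowest in Nfkb2-KO. It was at 6.12 and 6.00 in WT, 6.20 and 5.97 in RelB-KO, 5.75 and 5.61 in Nfkb2-KO and 6.02 and 5.98 in DKO, so that the Nfkb2-KO libraries lay below the other 6, the opposite of Pcyt1a. Nfkb2-KO minus WT was -0.38 ± 0.10 (limma adjusted p = 0.272, and 0.0403 with the replicate block). Among the other enzymes of the 2 routes, Pemt, which makes phosphatidylcholine by methylating phosphatidylethanolamine, differed by 0.08 ± 0.07 (adjusted p = 0.806).

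The remaining lists held no call in Nfkb2-KO minus WT, with or without the block. Of 14 genes of diacylglycerol supply and use, 9 were positive and 5 negative (median 0.02), and the largest differences were those of the triglyceride-forming enzymes Dgat2 (0.65 ± 0.34) and Dgat1 (-0.31 ± 0.24). Dgat2 varied between replicates as much as between genotypes, at 8.38 and 8.85 in WT, 9.78 and 8.74 in RelB-KO, 9.07 and 9.46 in Nfkb2-KO and 9.13 and 9.19 in DKO. Of 24 genes of phosphatidylcholine remodelling, transfer and breakdown, 12 were positive and 12 negative (median -0.00), led by the lysophospholipid acyltransferase Mboat1 (0.53 ± 0.23) and the lysophospholipase Pnpla6 (-0.30 ± 0.12). The 7 tested genes of the phosphatidylserine and CDP-diacylglycerol routes lay between -0.01 and 0.07, the largest being Pgs1 (0.07 ± 0.16) and Ptdss2 (0.03 ± 0.09). In choline oxidation, Chdh (choline dehydrogenase) was at 6.48 and 7.03 in WT, 7.20 and 7.02 in RelB-KO, 6.47 and 6.47 in Nfkb2-KO and 7.13 and 7.28 in DKO. Its DKO minus Nfkb2-KO difference was 0.74 ± 0.18 (limma adjusted p = 0.176, and 0.0284 with the block).

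**Figure D4:**
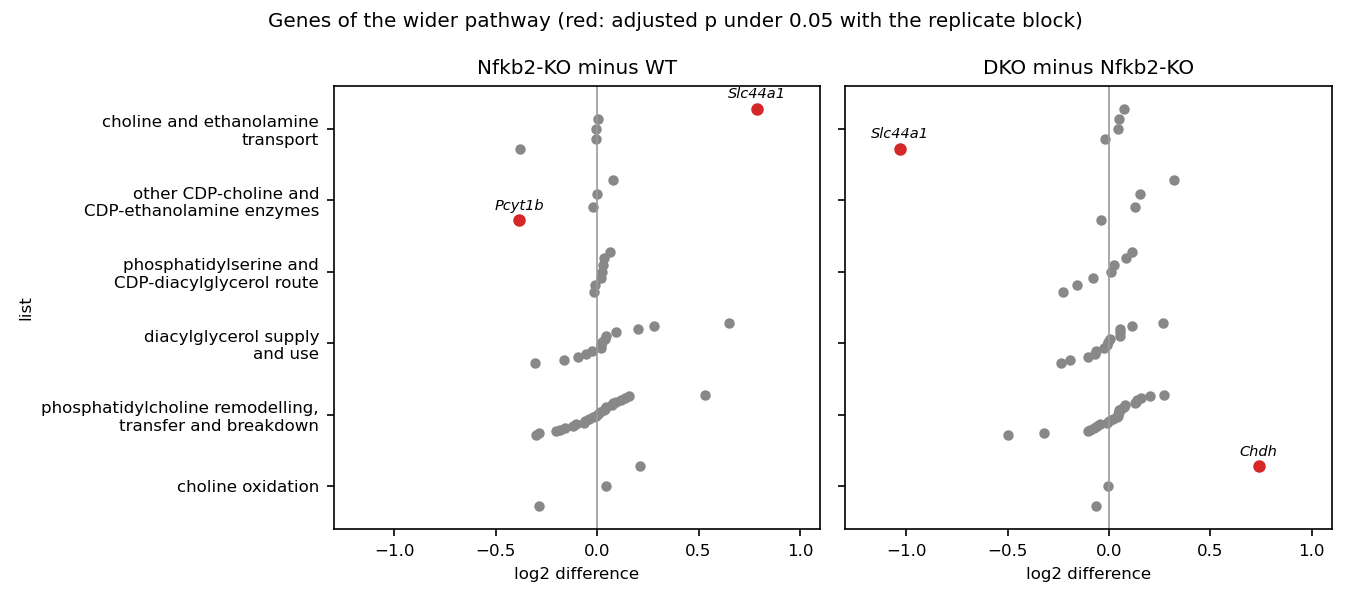
Differences of the 57 tested genes of the wider pathway (points; horizontal axes, log2 units) in 6 lists (vertical axis) for Nfkb2-KO minus WT and DKO minus Nfkb2-KO; red points had an adjusted p under 0.05 with the replicate block. Most genes lie near 0, and Slc44a1 lies at 0.79 in the first panel and at -1.03 in the second.

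Genes next to Pcyt1a on chromosome 16 were read from a list of 12, of which 10 were in the table and 8 were tested. In Nfkb2-KO minus WT 1 of the 8 was called higher (0.29% of all tested genes, and 0.0507% lower), and in DKO minus Nfkb2-KO 1 was called lower (0.645%, and 0.123% higher), the same gene. Tctex1d2, a dynein light chain gene that starts at -11.2 kb from the Pcyt1a start on the same strand (32419702 to 32429099), was also highest in Nfkb2-KO. Its log2 level was 6.77 and 6.91 in WT, 6.71 and 6.72 in RelB-KO, 7.84 and 7.75 in Nfkb2-KO and 6.84 and 6.87 in DKO, and the Nfkb2-KO libraries were well clear of the other 6. Tctex1d2 rose by 0.95 ± 0.09 in Nfkb2-KO over WT (limma adjusted p = 0.0214) and was lower by the same measure in DKO than in Nfkb2-KO, at -0.94 ± 0.09 (adjusted p = 0.0140). Without any one of the 8 libraries the first adjusted p was between 0.0536 and 0.150. The second was between 0.0665 and 0.113 without an Nfkb2-KO or DKO library. With the block the adjusted p values were 0.00157 and 0.000919. Tctex1d2 ends before Pcyt1a begins and does not depend on the repeated WT value.

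Of the other 7 tested neighbours 0 were called without the block. Ubxn7, a ubiquitin-binding adaptor, was at 11.78 and 11.74 in WT, 11.82 and 11.74 in RelB-KO, 12.00 and 11.96 in Nfkb2-KO and 11.68 and 11.45 in DKO. Its DKO minus Nfkb2-KO difference was -0.42 ± 0.09 (limma adjusted p = 0.145, and 0.0161 with the block). Tm4sf19, which starts at -30.4 kb from the Pcyt1a start, differed by 0.04 ± 0.02 in Nfkb2-KO over WT. Its mean log2 level was only 2.37, and genes with low values were nearly constant in these data, so a change may not show. Tfrc, the transferrin receptor and the nearest tested gene after Pcyt1a, at 178 kb, differed by 0.19 ± 0.16 (adjusted p = 0.780). In a window of 500 kb on either side, chosen after values were seen, 22 tested genes started, Pcyt1a included. Beyond Pcyt1a and Tctex1d2, 2 of them were called higher in Nfkb2-KO minus WT with the block, against 1.91% of all tested genes. These were Pigx, a GPI-anchor synthesis gene (0.46 ± 0.11, limma adjusted p = 0.213, and 0.0474 with the block), and Rubcn, an autophagy regulator listed as 1700021K19Rik (0.47 ± 0.11, limma adjusted p = 0.212, and 0.0185 with the block). In DKO minus Nfkb2-KO, Ubxn7 and Rubcn were called lower with the block besides Tctex1d2, against 2.96% of all tested genes, with Rubcn at -0.58 ± 0.11 (limma adjusted p = 0.0839, and 0.00473 with the block).

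**Figure D5:**
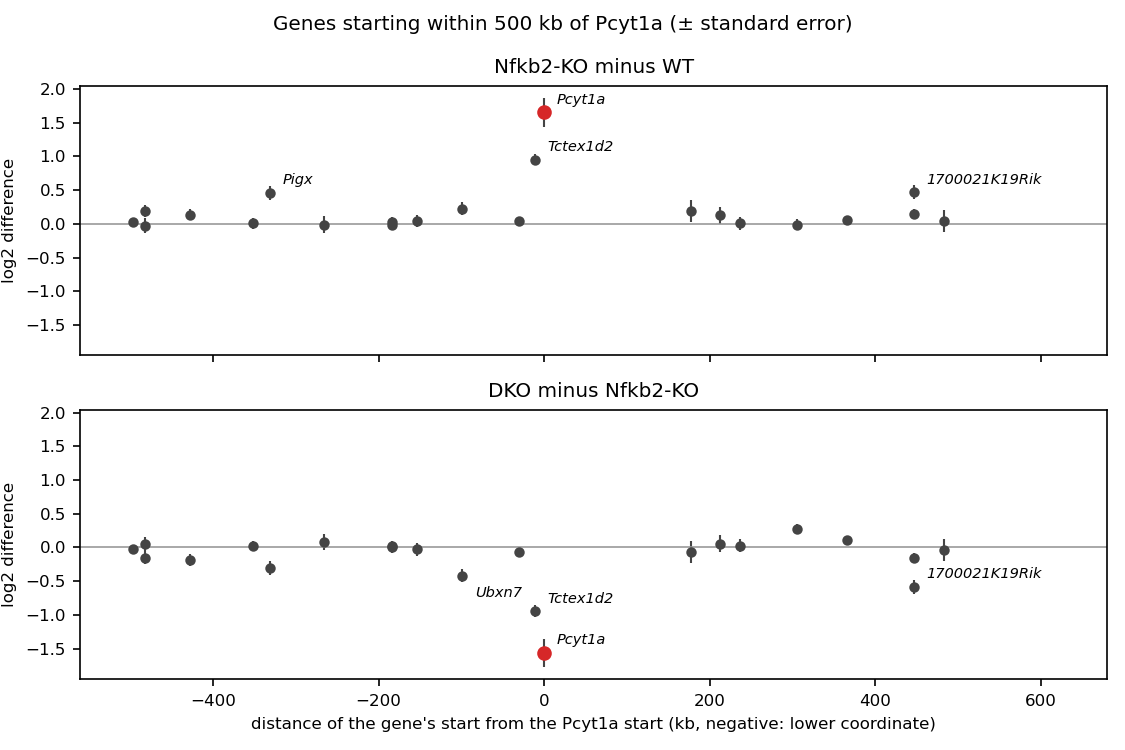
Differences (vertical axes, log2 units, ± 1 standard error) of the 22 tested genes that start within 500 kb of Pcyt1a, by distance from the Pcyt1a start (horizontal axis, kb), with Pcyt1a in red. In Nfkb2-KO minus WT, Pcyt1a (1.65) and Tctex1d2 (0.95) lie above the rest, and in DKO minus Nfkb2-KO both lie below it (-1.56 and -0.94).

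Genes with the pattern most like that of Pcyt1a were taken from 134 genes whose genotype means spanned at least 1, by Pearson correlation over the 8 libraries after the mean of each replicate number was subtracted. The libraries are shared by all genes, so the coefficients are descriptions. The 5 closest were Tnfrsf11a, the receptor RANK (0.989), Sh3pxd2b, a podosome adaptor (0.987), Dkk3, a secreted Dickkopf family protein (0.986), Fcrl1, an Fc receptor-like protein (0.986), and Tctex1d2 (0.986). With 12.30 in WT replicate 2 the closest were Sh3pxd2b, Fcrl1, Asb2, Tnfrsf11a and Tctex1d2, from 0.989 to 0.984. Mean log2 levels of Tnfrsf11a were 5.24 in WT, 5.19 in RelB-KO, 6.25 in Nfkb2-KO and 5.20 in DKO, and those of Sh3pxd2b were 6.78, 6.35, 9.28 and 6.52 in the same order. In both the DKO mean lay near the WT and RelB-KO means. Both genes were picked for their likeness to Pcyt1a, which has this pattern, so nothing is read from it.

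Markers of other cells were compared with these patterns. In bulk RNA, fewer cells of a type and less RNA per cell cannot be told apart. The summed B cell marker level was 7.37 to 7.58 in WT, 7.44 to 7.81 in RelB-KO, 7.72 to 7.79 in Nfkb2-KO and 7.83 to 7.89 in DKO. Of the genes in this list, Cd79b was the highest in every library, at 7.09 to 7.72, and Blk lay at 3.60 and 3.58 in Nfkb2-KO against 3.30 to 3.39 in the other libraries. Myeloid markers summed to 6.55 to 6.73 in Nfkb2-KO and 6.62 to 6.80 in WT, and the summed level of CD8 T and NK markers was 8.16 to 8.23 against 8.03 to 8.20. The part of these markers in the results was not tested.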

How the data were processed

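RNA from 8 Treg samples was sequenced after TruSeq library preparation, 2 libraries for each of 4 genotypes. STAR, DESeq2 1.10.1 and mm10 are named in the submitters' processing notes with no role; the counting program, the use of strand and the batch method are not given in the sources used here. Per the file headers, the authors deposited log2 RPKM values after batch correction, a score for each value (the z-score of the gene over the 8 libraries), log2 fold changes of each knockout against WT, and p-values with adjusted p-values. The un-logged values summed to 18.2 to 19.7 M per library, which RPKM would not, and genes with low values were nearly constant, so the log2 values were treated as expression relative to library size without a length term. Fold changes of weakly expressed genes may therefore be too small. No counts were used, so no counting interval is given.

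Of 22432 rows, 6247 listed at 0 throughout and 1 with a blank cell (Zwilch) were left out, as were rows with a mean un-logged value under 1, leaving 13797. A further 25 symbols had been turned into dates and are not named. All 7 genes passed the filter. A limma 3.58.1 model (R 4.3.3) with the 4 genotypes was fitted to the 8 libraries as deposited, with a trend of variance on expression and 4 residual degrees of freedom. A call needed an adjusted p under 0.05 (Benjamini-Hochberg, over 13797 genes). The 6 contrasts were each knockout against WT, DKO against each single knockout, and the interaction, which is the effect of losing Relb in cells without Nfkb2 minus its effect in cells with Nfkb2. Scripts were tested on simulated data.

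The replicate numbers of the labels pair the samples: the difference between replicates 2 and 1 correlated across 13797 genes at 0.81 to 0.89 in all 6 pairs of genotypes. The fit with replicate number as a block (3 residual degrees of freedom) was an alternative, as were log2(value + 1), no filter on low values, median centring, quantile normalization, no variance trend and leaving out each library. The 7 genes, the lists and the tests were chosen with earlier results of these data known. Named were the 7 genes, list genes called with or without the block, otherwise the 2 genes of a list with the largest difference between Nfkb2-KO and WT, and the 5 genes most like Pcyt1a. Other named genes were chosen after their values were seen. Coordinates and exonic lengths are from GENCODE M21 (GRCm38/mm10), and promoter sequences are from RefSeq (GRCm38.p6).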

Additional observations from a re-analysis of the deposited data

Results flagged for a closer look

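Among the list genes, those next to Pcyt1a included, the interaction was called for 2 with the replicate block and for neither of them without it. For these 2 genes the effect of deleting Relb thus differed between cells with and without Nfkb2 only in the fit with the block. Sh3pxd2b, Tnfrsf11a and the other genes most like Pcyt1a, apart from Tctex1d2, were not looked up for the interaction. For Tctex1d2, the gene before Pcyt1a, the interaction was -0.82 ± 0.13 (limma adjusted p = 0.0375 with the block, and 0.294 without it). RelB-KO minus WT was -0.12 for this gene and DKO minus Nfkb2-KO was -0.94. For Slc44a1, the choline transporter, the interaction was -0.91 ± 0.14 (limma adjusted p = 0.0356 with the block, and 0.524 without it), from -0.12 in RelB-KO minus WT and -1.03 in DKO minus Nfkb2-KO. In both genes the DKO library was below the Nfkb2-KO library in 2 of 2 replicates, without overlap of the groups. Libraries of DKO and Nfkb2-KO did not overlap for 35.1% of all tested genes. With the block 0.471% of all genes had such an interaction (65 genes), and 0.00725% without it (1 gene).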

How the results depend on the processing

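The Pcyt1a differences between Nfkb2-KO and WT (1.56 to 1.75) and between DKO and Nfkb2-KO (-1.66 to -1.46) kept their direction under every alternative run, including the block, which narrowed their standard errors from 0.21 to 0.14. Without single libraries, and with the deposited WT values, Pcyt1a ranged from -0.45 to 0.22 in RelB-KO minus WT, from -0.0016 to 0.19 in DKO minus WT, from -0.12 to 0.54 in DKO minus RelB-KO and from -1.78 to -1.11 in the interaction. Counts of called genes moved most. With the replicate block they were 402 for Nfkb2-KO minus WT (47 without), 2 for RelB-KO minus WT (1), 9 for DKO minus WT (2), 693 for DKO minus Nfkb2-KO (106), 2 for DKO minus RelB-KO (1) and 65 for the interaction (1). Calls in the 6 pathway lists were 2, 2 and 1 with the block in Nfkb2-KO minus WT, DKO minus Nfkb2-KO and the interaction, against 0, 1 and 0. Apart from these and the named genes given with both values, the block changed no call. Without single libraries the counts were 0 to 29, 1 to 12, 1 to 13, 8 to 58, 0 to 2 and 0 to 12 in the order of the contrasts above, and the list call in DKO minus Nfkb2-KO fell to 0. Leaving out a library leaves 3 residual degrees of freedom, and the lone library of a genotype is assumed to vary like the others. Without the variance trend they were 12 for Nfkb2-KO minus WT, 1 for DKO minus WT, 0 for DKO minus RelB-KO, 0 for the interaction and 0 for the list call in DKO minus Nfkb2-KO. With no filter on low values they were 20 for Nfkb2-KO minus WT and 0 for DKO minus RelB-KO. The cause of these moves was not tested.

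For the other 6 genes, 456 of 504 combinations of gene, contrast and alternative kept their direction and none was newly called; 48 changed sign, all at 0.12 or less. Chkb turned to 0.00085 and 0.0012 in Nfkb2-KO minus WT and to 0.0055 and 0.0050 in RelB-KO minus WT under median centring and quantile normalization. The other sign changes came from leaving out a library. In Nfkb2-KO minus WT the ranges were -0.086 to 0.0059 (Pcyt2), -0.10 to 0.098 (Chkb) and -0.17 to 0.11 (Cept1). In RelB-KO minus WT they were -0.081 to 0.011 (Pcyt2), -0.15 to 0.0076 (Chka), -0.052 to 0.049 (Chkb) and -0.096 to 0.027 (Etnk1). In DKO minus WT they were -0.23 to 0.037 (Chka), -0.054 to 0.080 (Chkb), -0.27 to 0.0089 (Cept1) and -0.12 to 0.023 (Etnk1). In DKO minus Nfkb2-KO they were -0.15 to 0.12 (Chka), -0.086 to 0.12 (Chkb), -0.24 to 0.035 (Cept1) and -0.049 to 0.096 (Etnk1). In DKO minus RelB-KO they were -0.16 to 0.11 (Chka), -0.053 to 0.081 (Chkb), -0.11 to 0.15 (Cept1) and -0.087 to 0.057 (Etnk1). In the interaction they were -0.083 to 0.19 (Chka), -0.084 to 0.12 (Chkb), -0.089 to 0.19 (Cept1) and -0.014 to 0.13 (Etnk1). The number of reads behind each value is unknown, and 2 libraries a group limit every comparison.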
